A study of Mus musculus with 4 samples.

Results

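The genes described here are 10 AP-1 subunits and immediate early genes, taken by symbol from a table of 20207 genes: Fos, Fosb, Fosl2, Jun, Junb, Jund, Atf3, Egr1, Ier2 and Dusp1. All 10 were in the table. They were compared between LSK cells (lineage-negative, Sca-1-positive, Kit-positive hematopoietic stem cells and multipotent progenitors) of wild-type and of Brpf1-null mouse embryos. The cells came from fetal liver at E14.5, and every sample was a pool of about 10000 sorted cells from 4 embryos. Brpf1 encodes a chromatin reader that scaffolds MYST-family histone acetyltransferases. The labels give no strain, allele or Cre driver for the mutant, and no other treatment. They describe 2 samples per genotype as 2 pairs, but the tables of the pairs held the same values, with 0 of 20207 genes differing in either genotype, so each genotype counts as 1 library (n = 1). The comparison therefore has no replicate check and no p-value, and which pair or pairs the values come from is not given in the sources used here.

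AP-1 is a dimer of basic leucine zipper proteins. Jun proteins pair with each other or with Fos proteins, whereas Fos proteins need a partner, so the dimers a cell can form depend on which subunits it makes. Immediate early genes such as Fos, Egr1 and Ier2 are switched on by growth factors, cytokines and stress through MAP kinases without new protein synthesis, and their mRNAs are short-lived. In blood progenitors these factors take part in responses to cytokines, in myeloid differentiation and in the control of quiescence.

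The proximal promoters were read first, since transcription of these genes is controlled close to the start site and several of the 10 are textbook targets of cAMP-response and AP-1 factors. RefSeq's table of promoters (GRCm38.p6) held 8 of the 10 genes, all but Egr1 and Ier2, and the 250 bases before each start were searched. The 4 stretches shown are those of genes with a match to TGACGT or TGACATCA, letters of cAMP-response and AP-1 type elements. They end at the base before the annotated start, and capitals mark the matches, including TATAAA in Fos.
Fos, chr12:85473790-85473889, plus strand: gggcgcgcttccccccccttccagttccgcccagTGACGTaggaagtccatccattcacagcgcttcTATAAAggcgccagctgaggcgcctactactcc
Atf3, chr1:191183334-191183433, minus strand: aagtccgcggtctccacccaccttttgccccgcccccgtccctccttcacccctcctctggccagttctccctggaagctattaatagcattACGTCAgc
Dusp1, chr17:26508473-26508622, minus strand: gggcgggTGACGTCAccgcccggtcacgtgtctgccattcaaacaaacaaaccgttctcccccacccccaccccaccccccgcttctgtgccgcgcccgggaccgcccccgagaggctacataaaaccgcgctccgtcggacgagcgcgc
Jun, chr4:95052223-95052322, minus strand: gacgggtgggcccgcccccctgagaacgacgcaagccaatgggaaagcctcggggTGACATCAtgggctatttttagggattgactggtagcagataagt

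In Fos the TGACGT match lay 66 to 61 bases before the start and TATAAA 33 to 28 bases before it. In Atf3 the match was on the opposite strand, 8 to 3 bases before the start. Dusp1 held overlapping matches on both strands from 143 to 136 bases, which together spell TGACGTCA, and another match from 191 to 186 bases that lies outside the stretch shown. Jun held TGACATCA from 45 to 38 bases before its start. Of all 32851 promoters in the table, 6.47% held TGACGT on either strand, 2.93% TGACATCA on either strand and 7.59% TATAAA on the gene's strand. TGACTCA (4.46% of promoters, either strand) and the CArG box bound by serum response factor (1.47%, either strand) matched in 0 of the 8 genes. This holds for the 250 bases only: sites further upstream, and those of Egr1 and Ier2, were not searched. The genes that share TGACGT did not share a direction between the libraries: Fos and Atf3 were higher in the Brpf1-null library, and Dusp1 was at nearly the same level in both.

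The 3 Fos-family genes were all higher in the Brpf1-null library, Jun and Egr1 were lower, and Junb, Ier2 and Dusp1 were at similar levels in both. Values are RPKM, read numbers scaled by transcript length and library size, and folds are ratios of RPKM. The range in brackets is the 95% counting interval of a fold, exact Clopper-Pearson on the estimated reads of the gene. It covers counting error only, treats reads as independent, and says nothing of the spread between embryos or pools. From the spacing of low values, depth came to about 23593365 reads for wild-type and about 22170521 reads for Brpf1-null.

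**Figure D1:**
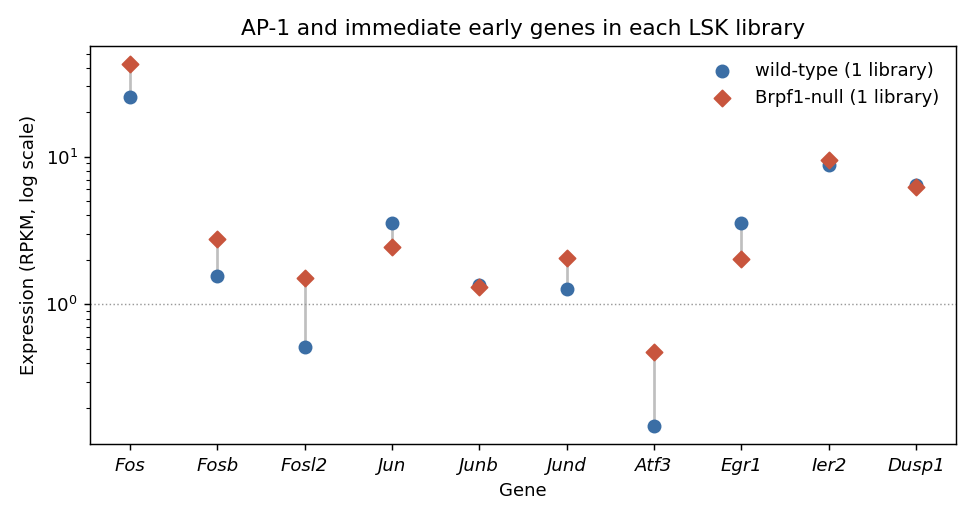
RPKM of each of the 10 genes (horizontal axis) on a logarithmic vertical axis, with a circle for the wild-type and a diamond for the Brpf1-null library (n = 1 each, so there are no error bars); the dotted line marks 1 RPKM. Fos stands above the other genes in both libraries, at 25.3 and 42.4 RPKM, and Atf3 lies below 1 RPKM in both.

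Among the Fos family, Fos, the prototype subunit, stood at 25.3 RPKM in wild-type cells and at 42.4 RPKM in Brpf1-null cells, from about 1260 and 1983 reads. Brpf1-null cells thus had a 1.68-fold higher level (1.56 to 1.80). This was the most abundant of the 10 genes in either library, and its level was at or above that of 90.3% of all 20207 genes in wild-type and of 93.5% in Brpf1-null.

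Fosb, which also makes a truncated splice form that lacks the transactivation domain, was at 1.54 and 2.79 RPKM in the same order. It was 1.80-fold higher (1.45 to 2.27), from about 131 and 223 reads. Fosl2, which encodes FRA-2, a subunit without the strong transactivation domain of FOS, was at 0.512 and 1.51 RPKM. Its 2.94-fold higher value (2.26 to 3.85) rested on about 79 and 218 reads and was the largest ratio among the 9 genes whose mean reached 1 RPKM. The mean of Fosl2, 1.01 RPKM, reached that level only through its Brpf1-null value. Fosl1, the fourth family member and not one of the 10, was listed at 0 in both libraries.

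The Jun family, whose members can also dimerise with each other, went different ways. Jun, the strongest activator of the family, was at 3.56 RPKM in wild-type and 2.44 RPKM in Brpf1-null, 1.46-fold lower (1.19 to 1.77) from about 267 and 173 reads. Junb, which restrains stem cell proliferation and myeloid expansion, was at 1.36 and 1.32 RPKM. Its ratio of 0.973 had an interval from 0.657 to 1.44 on about 58 and 53 reads, so a difference was not detectable at this depth. Jund, the most broadly expressed family member in many tissues, was at 1.28 and 2.05 RPKM, 1.60-fold higher (1.12 to 2.36) on about 50 and 76 reads.

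Summed over the family, Fos genes came to 27.4 RPKM for wild-type and 46.7 RPKM for Brpf1-null, a ratio of 1.71. The Jun genes summed to 6.19 and 5.81 RPKM, a ratio of 0.939. Within a library, which no scaling between libraries can alter, the Fos-family sum was 4.42 times the Jun-family sum in wild-type and 8.04 times in Brpf1-null. Fos made up 92.5% of its family in wild-type and 90.8% in Brpf1-null. Without Fos, the sum of Fosb and Fosl2 was 0.332 of the Jun-family sum in wild-type and 0.739 in Brpf1-null. The makeup of the Jun family differed too: Jun gave 57.4% of the sum in wild-type and 42.0% in Brpf1-null, Jund 20.6% and 35.2%, and Junb 21.9% and 22.7%. These are levels of mRNA and not of dimers, and they carry no replicate error.

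**Figure D2:**
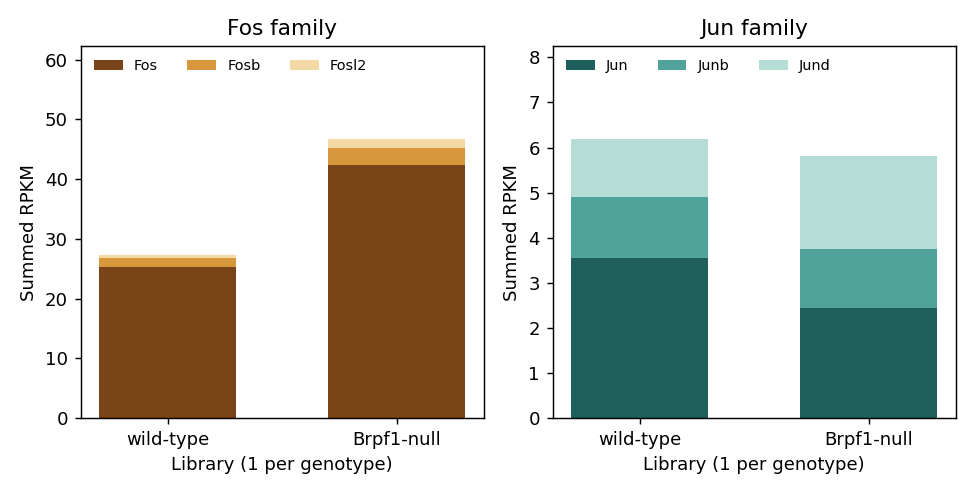
Summed RPKM of the Fos family (left) and the Jun family (right) in the wild-type and Brpf1-null libraries, 1 bar per library, with a coloured segment per gene; the vertical axes start at 0 and differ in scale. The Fos bar goes from 27.4 to 46.7 RPKM, nearly all of it Fos, while the Jun bars stand at 6.19 and 5.81 RPKM with a smaller Jun and a larger Jund segment in Brpf1-null.

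Of the other transcription factors, Egr1, a zinc-finger factor that holds adult stem cells in quiescence and favours macrophage fate, stood at 3.54 RPKM in wild-type and 2.02 RPKM in Brpf1-null cells. It was 1.75-fold lower (1.45 to 2.13), from about 314 and 168 reads. Jun and Egr1 were thus at nearly equal levels in wild-type, and both were lower in the Brpf1-null library. Atf3, a stress-induced repressor that pairs with Jun proteins, was at 0.150 and 0.478 RPKM. It was 3.19-fold higher (1.31 to 8.89) on about 7 and 21 reads, the fewest of the 10 genes, and its mean fell under the minimum of 1 RPKM, so it is in none of the counts.

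Ier2, a small nuclear immediate early protein, was at 8.80 RPKM in wild-type and 9.46 RPKM in Brpf1-null, a ratio of 1.07 (0.917 to 1.26). Dusp1, the phosphatase that switches off p38 and JNK kinases, was at 6.40 and 6.26 RPKM, a ratio of 0.977 (0.821 to 1.17). Both intervals include 1, and they leave room for differences up to their ends. After Fos these were the most abundant of the 10 genes, in the same order in both libraries. Below them the order differed: in wild-type Jun, Egr1, Fosb, Junb, Jund, Fosl2 and Atf3 followed, and in Brpf1-null Fosb, Jun, Jund, Egr1, Fosl2, Junb and Atf3. With 1 library each, it cannot be said which neighbours in that order differ beyond the spread of samples.

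**Figure D3:**
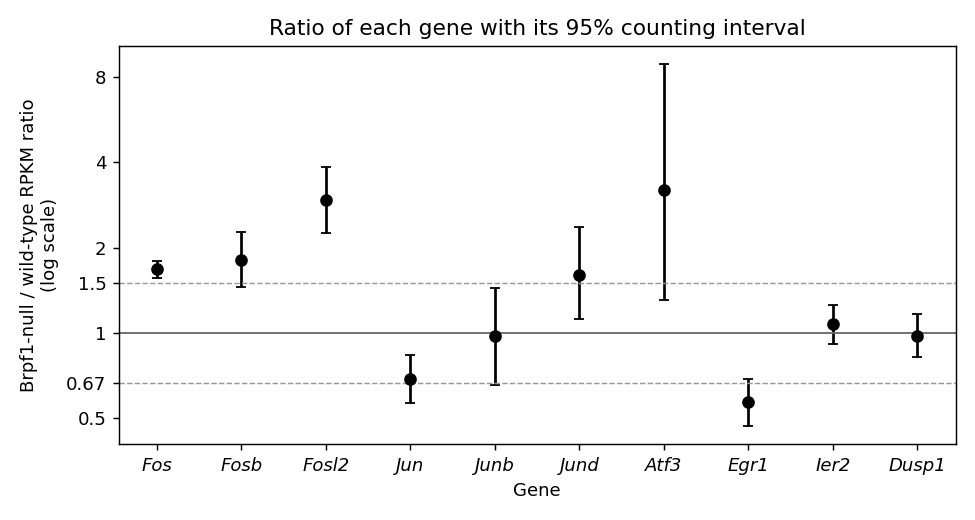
Ratio of Brpf1-null to wild-type RPKM for each of the 10 genes on a logarithmic axis, with bars for the 95% counting interval (counting error only); the solid line marks equality and the dashed lines 1.5-fold either way. The bars of Fos, Fosb, Fosl2, Jund and Atf3 lie above equality, those of Jun and Egr1 below it, and those of Junb, Ier2 and Dusp1 cross it.

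For counts, the change of a gene was taken as log2((Brpf1-null + 1)/(wild-type + 1)), which understates the change of low genes, and a gene was called past 1.5-fold, a log2 change of 0.585, over genes whose mean reached 1 RPKM. Of the 9 genes measured by that rule, Fos and Fosl2 were past it upwards (log2 changes of 0.72 and 0.73) and Egr1 downwards (−0.59). Fosl2, at 0.512 RPKM in wild-type, was measured only because its Brpf1-null value was high, so its call is no independent support. Counts in the other lists and over all genes can include such genes too. Among all 9380 genes so measured, 14.1% were past 1.5-fold upwards and 9.42% downwards, so 2 of 9 and 1 of 9 are close to the background and say little about the set as such. Fosb, at 0.57, lay just inside the threshold and Egr1 just outside. With a pseudocount of 0.1 in place of 1, Fosb and Jund were past it too, giving 4 higher genes, and with a pseudocount of 5 only Fos was past it. The median log2 change of the 9 genes was 0.09, beside 0.04 over all genes. The counting interval lay above equality for 4 of the 9 genes and below it for 2, where it did so for 37.5% and 30.5% of the 9258 genes with an interval.

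Scaling of the libraries left the direction of the larger differences as it was and turned that of Ier2. Centring each library on its median shifted the median change of all genes by −0.11, from 0.04 to −0.07 on the log2 scale. Relative to that shift, Fos (0.61), Fosl2 (0.62), Fosb (0.46) and Jund (0.31) were still higher after centring, and Jun (−0.52) and Egr1 (−0.70) lower. Ier2 turned from 0.09 to −0.02, and the median of the 9 genes also to −0.02.

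Genes with GC-rich transcripts tended towards a higher log2 change: the median log2 change ran from −0.15 in the lowest decile of GC content to 0.27 in the second highest and 0.23 in the highest. All 10 genes had a GC content above 50.1%, the median of all measured genes (longest coding transcript), and Jund had the highest of them. After the trend was removed, Fos was at 0.65, Fosl2 at 0.63, Fosb at 0.39 and Jund at 0.20. Jun was at −0.58 and Egr1 at −0.76, and Ier2 was again lower, at −0.11. The part of GC content in the values was not tested further.

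**Figure D4:**
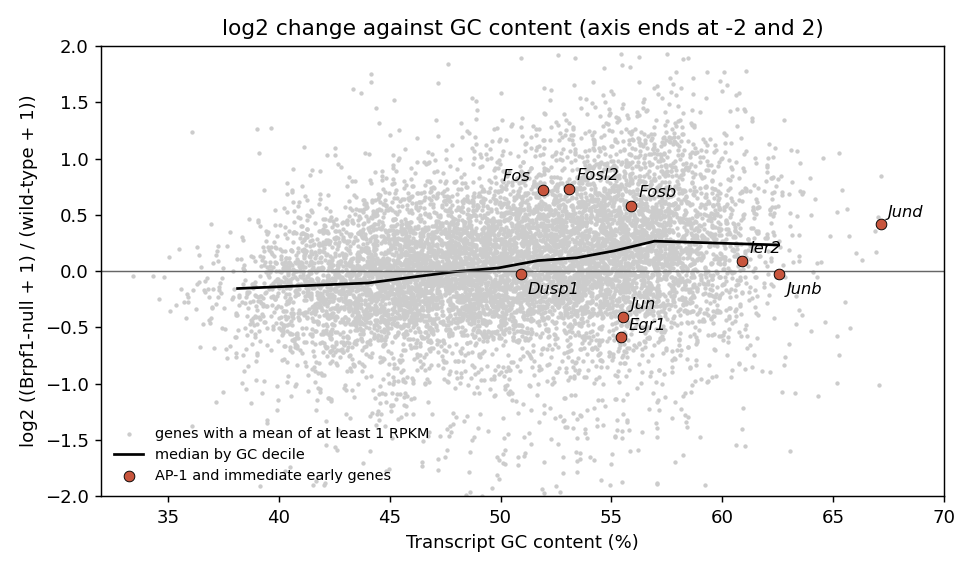
log2 change between the libraries (vertical, with the pseudocount) against the GC content of the transcript in percent (horizontal) for genes whose mean reached 1 RPKM (grey), with the median in each decile of GC content (line) and the 9 genes measured by that rule (filled circles); genes beyond −2 or 2 are outside the frame. The line climbs from −0.15 to 0.27, and Fos, Fosl2 and Fosb lie above it while Jun and Egr1 lie below it.

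Features of the transcripts that the choice by symbol did not use were also read. In GENCODE M21 the longest coding transcript had a single exon for 4 of them (Jun, Junb, Jund and Ier2), against 1.57% of the 9153 measured genes with a coding transcript, whose median was 9 exons. The other 6 had 2 exons (Egr1) or 4. The pentamer ATTTA, the core of AU-rich decay elements, was found after the stop codon in 9 of the 10 genes, all but Ier2, and in 67.0% of measured genes. It occurred 8 times in Fosl2, 4 times each in Fos, Jun and Dusp1, and 3 times in Atf3. The part after the stop codon was 4653 bases long in Fosl2, 815 in Fos, 1233 in Jun, 690 in Dusp1 and 1186 in Atf3. Copies were not adjusted for that length. Of measured genes, 34.9% had 3 or more copies. Of the genes with 4 copies, Fos was higher in Brpf1-null, Jun lower and Dusp1 at a similar level. Of the genes with 4 exons, Fos, Fosb, Fosl2 and Atf3 were higher and Dusp1 similar. Egr1, with 2 exons, was lower. Of the single-exon genes, Jund was higher, Jun lower, and Junb and Ier2 similar. Whether either feature goes with the direction of change was not tested.

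Markers of other cells also differed between the libraries. The genes of the LSK gate were present in both libraries: Kit at 25.6 and 21.3 RPKM, and Ly6a, which encodes Sca-1, at 10.6 and 9.51 RPKM. Of the 9 measured gate and stem cell genes, 1 was higher and 3 lower by at least 1.5-fold, with a median log2 change of −0.48 (summed 298 and 310 RPKM). The lower genes were the stem cell factors Mecom (4.25 and 1.03 RPKM), Meis1 (44.2 and 17.0 RPKM) and Hlf (6.83 and 3.37 RPKM), and the higher was Cd34, which subdivides LSK cells, at 116.8 and 179.3 RPKM. Hepatocyte markers were lower by at least 1.5-fold in 10 of 10 measured genes, with summed levels of 2037 and 525 RPKM in wild-type and Brpf1-null cells. The same held for 10 of 10 erythroid genes (summed 1574 and 393 RPKM), 8 of 8 B-lineage genes (271 and 83.5 RPKM, with Pax5 listed at 0 in both) and 3 of 4 megakaryocyte genes (64.4 and 21.6 RPKM). Monocyte and macrophage markers were higher in 5 and lower in 3 of 10 (167 and 231 RPKM), neutrophil markers higher in 1 and lower in 5 of 9 (667 and 848 RPKM), and endothelial and stromal markers higher in 1 and lower in 2 of 5 (35.7 and 27.6 RPKM). Of all measured genes, 14.1% were higher and 9.42% lower by at least 1.5-fold. The Y-linked gene Ddx3y, named after its value was seen, was 3.56-fold lower (3.0 to 4.25) in the Brpf1-null library. The X-inactivation gene Xist, low in both libraries at 0.319 and 0.781 RPKM, was 2.45-fold higher (1.84 to 3.26). With 1 library per genotype, a difference in the sex of the pooled embryos cannot be told apart from genotype. The part of all these genes in the levels of the 10 genes was not tested. In such pools, fewer cells that make a transcript and less of it per cell cannot be told apart. Brpf1 itself was at 2.59 and 2.15 RPKM, 1.20-fold lower (1.00 to 1.44), a value over the whole gene that does not resolve a deleted part.

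Partners and pathway genes were taken from lists, and 77 genes of 4 lists were measured: 16 were past 1.5-fold upwards and 8 downwards, where 14.1% and 9.42% of all genes were. The split was 15 and 12 after centring, and 12 and 11 after removal of the GC trend. Among 16 other AP-1 and basic leucine zipper partners, 4 were higher and 3 lower, with a median log2 change of 0.01. Batf3, a dendritic cell factor that pairs with Jun proteins, was at 1.01 and 4.11 RPKM, 4.07-fold higher (2.44 to 7.17) in Brpf1-null. Mafk, a small MAF protein, was at 1.83 and 5.65 RPKM, and Nfe2l1 at 2.94 and 6.56 RPKM. Nfe2l2, which encodes the antioxidant regulator NRF2, was at 21.1 and 11.2 RPKM, 1.89-fold lower (1.72 to 2.09). Crem, a cAMP-response factor, was at 3.75 and 1.62 RPKM.

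The other immediate early genes went both ways. Of 27 measured, 5 were higher, 4 lower and 18 within 1.5-fold, with a median of −0.0021. Among all measured genes, 14.1% were higher and 9.42% lower by that much. After removal of the GC trend, 3 were higher and 5 lower. Sgk1, a kinase induced by serum and glucocorticoids, was at 4.08 and 1.02 RPKM, 4.01-fold lower (3.0 to 5.51). Plk2, a polo-like kinase, was at 6.76 and 2.15 RPKM, and Nfkbia, the inhibitor that NF-kB induces, at 26.5 and 11.6 RPKM. Higher in Brpf1-null were Ier3, at 1.40 and 3.63 RPKM, and the myeloid factor gene Cebpb, at 0.871 and 2.36 RPKM. Cebpb was measured only because its Brpf1-null value was high. The same held for Ier5, another of the 5, at 0.6205 and 1.885 RPKM. Their calls are no independent support. Both directions were seen in this larger list too, but all measured genes also went both ways, so this says little about immediate early genes as such.

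In the MAP kinase cascade that leads to these genes, 7 of 28 measured genes were higher by 1.5-fold and 0 lower, with a median of 0.27, where 14.1% of all genes were higher by that much. After centring, 6 were higher and 1 lower, where 961 and 1204 of all 9380 genes were. The 1 lower was Braf, at 1.825 and 0.897 RPKM, 2.03-fold lower (1.63 to 2.55), measured only because its wild-type value was high. With the pseudocount its log2 change was −0.57 before centring, just inside the threshold. The counting interval lay above equality for 15 of the 28 and below it for 3, where it did so for 37.5% and 30.5% of all genes with an interval. The median was 0.15 after centring, beside −0.07 over all genes. After removal of the GC trend it was 0.23, beside 0.03 over all genes. There 5 were higher and 0 lower, where 1115 and 883 of all genes were. Mapkapk2, a kinase downstream of p38, was at 4.99 and 11.1 RPKM. Rps6ka1, which encodes the ERK-activated kinase RSK1, was at 25.5 and 50.7 RPKM, 1.99-fold higher (1.88 to 2.11). Map3k5 (ASK1, a stress kinase above p38 and JNK) was at 1.14 and 2.81 RPKM, and Srf, the factor that binds the CArG box, at 2.69 and 5.41 RPKM.

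Of 9 measured MAP kinase phosphatases, Sprouty-type inhibitors and EGR corepressors, Dusp5, a nuclear ERK phosphatase, was higher, at 1.46 and 3.12 RPKM, and Spry2, a receptor tyrosine kinase feedback inhibitor, lower, at 2.94 and 1.47 RPKM. The other 7 lay within 1.5-fold, among them Spry1 at 2.51 and 1.54 RPKM and the ERK feedback phosphatases Dusp2 at 18.3 and 13.9 RPKM and Dusp6 at 11.1 and 8.54 RPKM. The median of this list was −0.16. Shares past 1.5-fold over all measured genes were 14.1% upwards and 9.42% downwards.

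**Figure D5:**
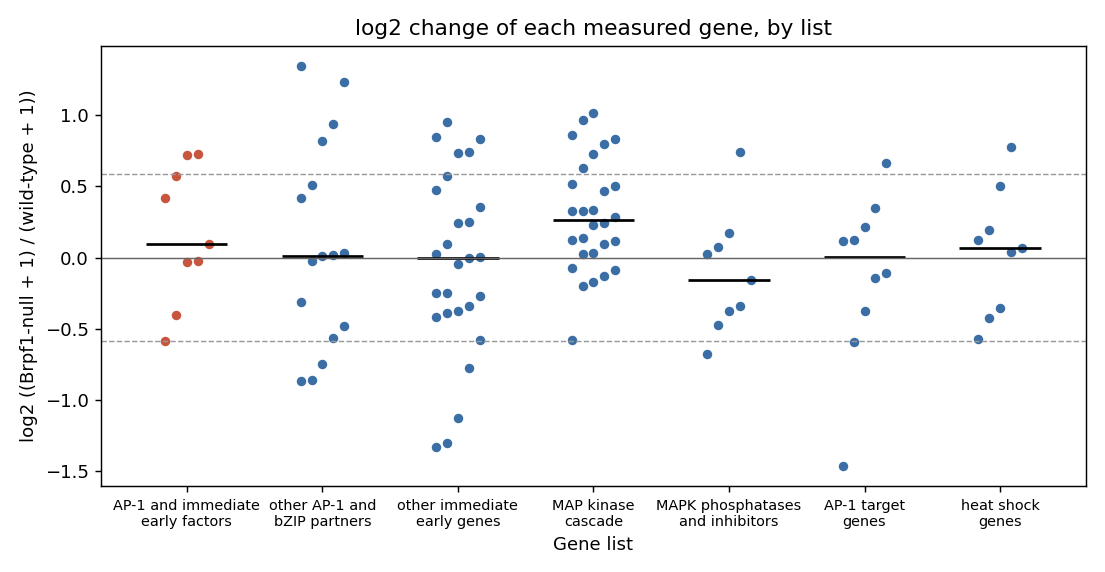
log2 change between the libraries (vertical, with the pseudocount) of each measured gene, in 7 lists (horizontal), with the median of each list as a black bar and dashed lines at 1.5-fold; sideways offsets within a list carry no meaning. The 10-gene set (9 measured) has a median of 0.09 and the MAP kinase cascade of 0.27, while the other lists have medians between −0.16 and 0.07.

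Textbook AP-1 target genes had a median of 0.0045 over 10 measured genes, with 1 higher and 2 lower by 1.5-fold. Of all measured genes, 14.1% were higher and 9.42% lower by that much, so these counts say little about the targets as such. Ccnd1, which encodes cyclin D1, was at 11.1 RPKM in wild-type and 18.1 RPKM in Brpf1-null, 1.63-fold higher (1.51 to 1.77). After centring its log2 change was 0.55, and 0 of the targets were higher and 2 lower by 1.5-fold, where 961 and 1204 of all 9380 genes were. Nqo1, a quinone reductase gene also bound by NRF2, was at 2.56 and 0.290 RPKM, 8.83-fold lower (4.60 to 19.0), and the galectin gene Lgals3 was at 10.6 and 6.72 RPKM. Nqo1 was measured only because its wild-type value was high. Cdkn1a, the cell cycle inhibitor p21, was at 3.56 and 2.52 RPKM, and the adhesion receptor gene Cd44 at 11.3 and 14.6 RPKM. Of the 24 listed targets, 14 were under the minimum of 1 RPKM, 6 of them at 0 in both libraries.

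Heat shock genes, which respond to cell stress, were measured as a mark of handling. Of 9 measured genes, 1 was higher and 0 lower by 1.5-fold, with a median of 0.07 and a summed level of 3924 RPKM in wild-type and 3851 RPKM in Brpf1-null for the list. Over all measured genes, 14.1% were higher and 9.42% lower by that much. Hspa8 had the highest level of the list, at 2357 and 1757 RPKM. Hsp90ab1, a constitutive HSP90 chaperone gene, was at 634 and 1089 RPKM, and Dnajb1, a heat-induced cochaperone gene, at 38.3 and 25.4 RPKM. Hspa8 and Hsp90ab1 thus went opposite ways within the sum, so near-equal sums do not show equal levels gene by gene. The counting interval lay above equality for 5 of the 9 and below it for 3, where it did so for 37.5% and 30.5% of all genes with an interval. At the high read numbers of these genes, intervals are narrow and leave out equality even for small differences. Equal handling of the pools was not tested. Dnajb1 was past 1.5-fold downwards after centring (−0.68) and with the GC trend removed (−0.65). The inducible Hsp70 genes Hspa1a (0 and 0.562 RPKM) and Hspa1b (0.0752 and 0.224 RPKM), named after their values were seen, are near-identical copies and were low in both libraries.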

How the data were processed

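RNA of sorted LSK cells was sequenced from oligo-dT-primed libraries on Illumina HiSeq instruments at 2 companies, with pair 1 on 2 lanes and pair 2 on 6, per the labels' protocols. Reads were aligned with TopHat to mm9, per the submitters' processing notes; which program counted reads, with which annotation and filters, is not given in the sources used here. For each gene the authors deposited RPKM (pair 1) and FPKM (pair 2), per the file headers, with a fold ratio and its log2, as deposited. All 12624 deposited ratios equalled wild-type over Brpf1-null within 0.001, opposite to the direction used here, and were not used further. The 2 tables held identical values and were read as RPKM of 1 library per genotype, so the planned limma fit was not run.

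Symbols were matched to GENCODE M21 transcripts (GRCm38), 17518 by the symbol itself and 2302 by a RefSeq synonym (98.1%), for lengths, exons and GC content only. Library sizes were recovered as those that bring low values closest to whole reads: 67.5% of 1189 low values were then whole within 0.1 read, against 29.9% with sizes raised by 5%. This step was tested on simulated data with known library sizes. The intervals were tried there on the true simulated counts, so their coverage with reads rebuilt from RPKM was not tested. Reads per gene use the median coding transcript length and are approximate. The GC trend was removed with lowess (statsmodels 0.14.6); intervals used scipy 1.17.1. Genes needed a mean of at least 1 RPKM, which left 9380. The members and lists were chosen with earlier results of these data known. Genes named are the 10 members, up to 5 per list with the largest absolute log2 change, the most abundant marker where needed, and Brpf1. Genes named outside this rule include Kit and Ly6a, for the LSK gate, and Braf and Ier5, for the counts they enter. A gene that this rule takes is not reported here.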

Additional observations from a re-analysis of the deposited data

How the results depend on the processing

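No paired analysis was possible because the tables of the 2 pairs held the same values, and for the same reason no replicate could be left out. Of the 9 measured genes of the 10, 3 were past 1.5-fold (2 higher, 1 lower). With a pseudocount of 0.1 this was 5 (4 higher, 1 lower), with a pseudocount of 5 it was 1 (1 higher, 0 lower), with a mean of at least 5 RPKM 1 of 3 (1 higher, 0 lower), and at 2-fold 0 (0 higher, 0 lower). Of the 77 partners and pathway genes, 24 were past 1.5-fold (16 higher, 8 lower), and this became 10 (6 higher, 4 lower) with a pseudocount of 5, 9 (6 higher, 3 lower) where means had to reach 5 RPKM, and 6 (3 higher, 3 lower) at 2-fold. Of all genes, 2207 were past 1.5-fold (1323 higher, 884 lower), and this became 947 (554 higher, 393 lower), 1276 (793 higher, 483 lower) and 713 (388 higher, 325 lower) in the same order. After centring, 961 genes were higher and 1204 lower. A larger pseudocount shrinks the change of low genes, and the stricter filter leaves fewer genes. The median log2 change of the 9 genes, 0.09, was −0.018 after centring, −0.067 after removal of the GC trend and 0.23 with no filter, where Atf3 enters. Of 79 genes, the 10 and up to 5 per list with the largest change, 0 of those past 1.5-fold changed sign under quantile normalization or removal of the GC trend. Another pseudocount cannot turn a sign, and centring is 1 shift for all genes smaller than the threshold, so neither was a check of direction. Sizes were less stable. The log2 change lay outside the gene's counting interval, or moved by over 0.1 where it had none, for 58 genes with a pseudocount of 5. This held for 40 genes with the GC trend removed, 38 after centring and 26 after quantile normalization. That interval is of the ratio without a pseudocount. With the shortest or the longest coding transcript in place of the median length, the interval of each of the 10 genes stayed on the same side of equality. At about 7 to 79 wild-type reads, the ratios of Atf3, Jund, Junb and Fosl2 have the widest intervals.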

Other observations

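Some listed genes were too low to be counted, and they were named after their values were seen. Hmox1, the heme oxygenase gene that NRF2 and AP-1 factors bind, stood at 1.15 RPKM in wild-type cells (about 43 reads) and was listed at 0 in the Brpf1-null library. Nqo1 (2.56 and 0.290 RPKM) and Nfe2l2 (21.1 and 11.2 RPKM) were lower in the same library. A link between these differences was not tested. Fasl, a death ligand gene, was at 0.0655 and 0.581 RPKM, from about 2 and 15 reads. Elk1, a ternary complex factor that acts with serum response factor, was at 0.263 and 0.813 RPKM, and its relative Elk4 at 0.610 and 0.392 RPKM. Among further immediate early genes, Socs3, a cytokine feedback inhibitor, was at 0.336 and 0.857 RPKM and Plk3, a polo-like kinase, at 0.161 and 0.532 RPKM. Egr4 and Nr4a3 were listed at 0 in both libraries, and Egr2 and Egr3 at 0 in wild-type and at 0.0152 and 0.0318 RPKM in Brpf1-null. With 1 library per genotype none of these differences has a replicate check.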
